A study of Mus musculus with 12 samples.

Results

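Retnla and Retnlg encode secreted proteins of the resistin-like family, and Chil1, Chil3 and Chil4 encode secreted proteins of the chitinase-like family. They were taken by symbol from an RNA-seq table of mouse bone marrow-derived macrophages (BMDMs) and are 5 of its 34327 genes. The BMDMs came from bone marrow of wild-type C57BL/6J mice (C57BL/6 in the labels) and were grown in medium conditioned by L929 cells. They were then kept on tissue culture (TC) plates or embedded in gels of rat tail collagen I, at 2 mg/ml (low-collagen gels) or at 7 mg/ml (high-collagen gels). In each of these 3 cultures the cells were left untreated or were given the type 2 cytokine IL-4 at 20 ng/ml, and the labels give 24 hours. Each of the 6 groups had 2 libraries, which makes 12 libraries. Plates and gels differed in more than the collagen, since cells lay on a surface or were embedded, and gels had to be broken up to harvest RNA. It is not stated whether the cells of replicate libraries came from different mice.

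Resistin-like proteins are small, cysteine-rich secreted proteins, and RELM-alpha, the product of Retnla, is one of the best known marks of mouse macrophages that have responded to IL-4 or IL-13. Chitinase-like proteins keep the fold of the glycoside hydrolases that digest chitin but have lost the catalytic residues, so they may bind sugars and do not cut them. Chil3 and Chil4 encode Ym1 and Ym2, which are made in large amounts in type 2 inflammation, while Chil1 (BRP-39) and Retnlg (RELM-gamma) are better known from neutrophils and other myeloid cells.

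The values are TPM, which the authors estimated with kallisto and deposited for each gene and library. TPM are reads assigned to a gene, divided by its transcript length and scaled so that all libraries have the same total, so the levels of different genes can be set beside each other. They keep no sequencing depth, so the reads behind a value are unknown, and a value of 0 means that no read was assigned to the gene. In bulk RNA, fewer cells of a kind and less RNA per cell cannot be told apart. All 10 macrophage markers listed had a mean TPM of at least 1, a level that 11865 of all 34327 genes reached. Lyz2, the lysozyme gene and the most abundant of the 10 markers, lay between 13223 and 48901 TPM. Adgre1, the gene of F4/80, lay between 374 and 767 TPM. The 6 fibroblast markers together reached at most 0.668 TPM in a library and the 6 lymphocyte markers at most 1.03 TPM. Of 12 neutrophil markers 6 had a mean of at least 1 TPM, as had 2 of 3 monocyte markers. Their sums reached at most 199 and 42.8 TPM in a library.

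Of the 5 genes, Retnla, Chil3 and Chil4 had a mean of at least 1 TPM over the 12 libraries, the minimum for a test. Chil4, at 0 in untreated cells, reached that mean only through the libraries with IL-4, and so did Retnla within the gels. Retnlg, at a mean of 0.216 TPM, and Chil1, at a mean of 0.0842 TPM, did not reach it and are described by their values. With IL-4 in low-collagen gels the order of the levels was Retnla, Chil3 and Chil4, with Retnlg and Chil1 overlapping at the bottom. In high-collagen gels with IL-4 it was the same order, and on TC plates with IL-4 Chil3 stood above Retnla.

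**Figure D1:**
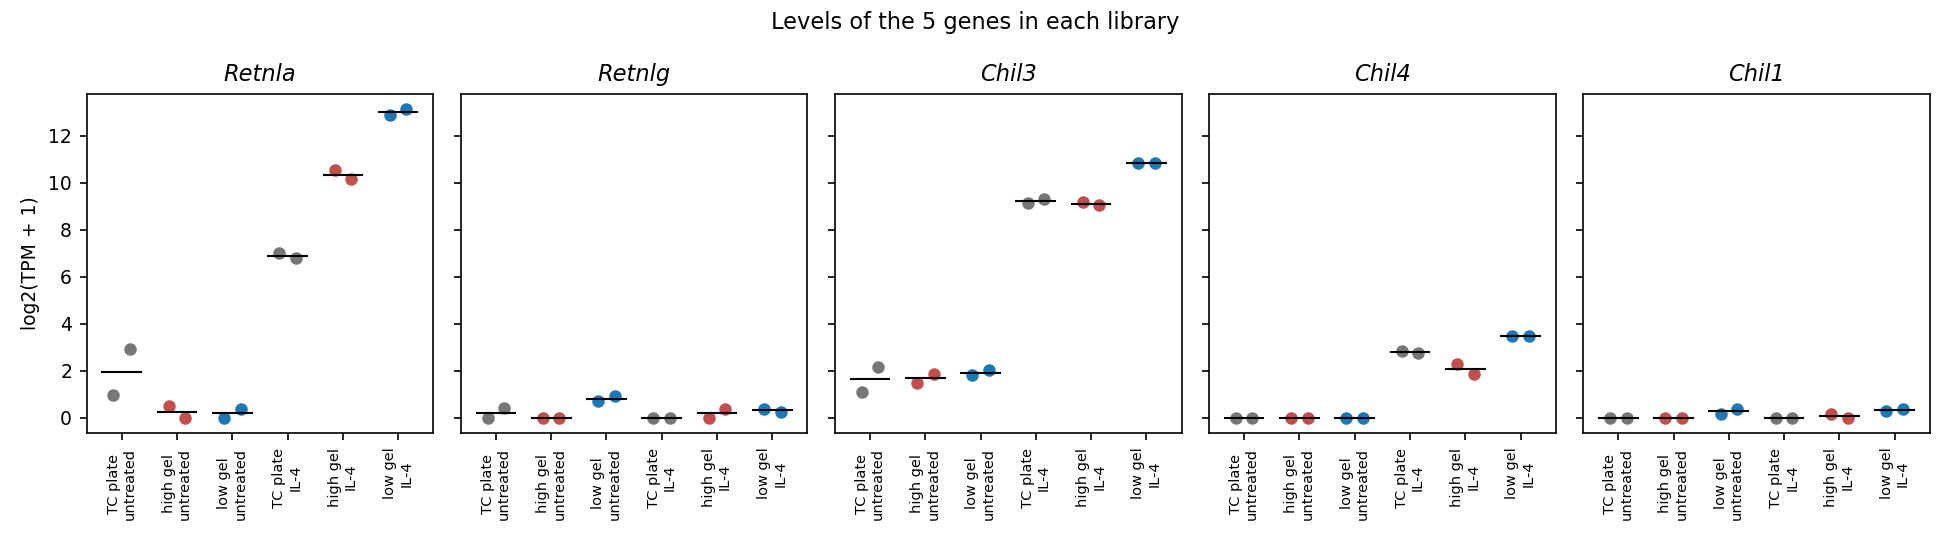
Levels of the 5 genes as log2(TPM + 1), 1 panel for each gene, with 1 point for each library, a bar at the mean of each group (n = 2) and the culture and treatment on the horizontal axis. Retnla, Chil3 and Chil4 are higher in every library with IL-4 than in every untreated library, while Retnlg and Chil1 lie near 0 throughout.

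Retnla (ENSMUSG00000061100) lies on chromosome 16 (GRCm38, plus strand), with Retnlb 23.7 kb before it and Retnlg (ENSMUSG00000022651, 48872621 to 48874496) 28.2 kb after it. The coding sequences of Retnla and Retnlg were identical at 293 of 351 aligned bases (83.5%), against 73.3% for Retnla and Retnlb, and the longest identical run was 42 bases. The bases before the starts of Retnla and Retnlg, from the RefSeq promoter table of GRCm38 and cut at the annotated gene start, are shown because these neighbours have similar sequence and very different levels:
Retnla, chr16:48842359-48842550, plus strand: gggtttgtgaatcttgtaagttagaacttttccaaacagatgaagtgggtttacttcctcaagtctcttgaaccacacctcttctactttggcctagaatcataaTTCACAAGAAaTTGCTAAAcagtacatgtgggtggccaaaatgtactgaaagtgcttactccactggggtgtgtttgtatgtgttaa
Retnlg, chr16:48872358-48872607, plus strand: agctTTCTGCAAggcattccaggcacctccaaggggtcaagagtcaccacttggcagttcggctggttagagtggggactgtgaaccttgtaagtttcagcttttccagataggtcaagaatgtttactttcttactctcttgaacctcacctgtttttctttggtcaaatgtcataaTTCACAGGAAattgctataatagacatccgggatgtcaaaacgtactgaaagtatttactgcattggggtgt
Both are written from 5′ to 3′, and 135 of 176 aligned bases (76.7%) were identical. Capitals mark matches, on either strand, to the words TTCNNNNGAA (of the kind bound by STAT6) and TTGCNNAA (of the kind bound by C/EBP proteins). The word TTCNNNGAA, another of the STAT kind, was searched too and had no match in either. Of 32851 promoters of 250 bases, 5.85% held the first word, 9.56% the second and 7.02% the last. The words were chosen after the promoters had been seen, and a match is a description only, not a binding site.

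In untreated cells Retnla was at 0.969 and 6.52 TPM on TC plates, at 0.389 and 0 TPM in high-collagen gels and at 0 and 0.296 TPM in low-collagen gels. With IL-4 it was at 126 and 109.7 TPM on TC plates, at 1472 and 1152 TPM in high-collagen gels and at 7612 and 9073 TPM in low-collagen gels. Every library with IL-4 was above every untreated library, and with IL-4 the 3 cultures did not overlap. Low-collagen gels stood highest and TC plates lowest with IL-4, whereas without IL-4 both plate libraries were above all 4 gel libraries. Untreated low- and high-collagen gels overlapped near 0. In the low-collagen libraries with IL-4, Retnla was the gene ranked 9 and 7 by TPM and took 0.763% and 0.909% of the library's TPM. It ranked 107 and 149 in high-collagen gels and 1237 and 1448 on TC plates with IL-4.

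With IL-4, the mean level of Retnla was 6.36 times higher in low- than in high-collagen gels, 70.6 times higher in low-collagen gels than on TC plates and 11.1 times higher in high-collagen gels than on TC plates. On TC plates, where no library was at 0, IL-4 raised the mean 31.5-fold. This fold rests on untreated libraries that lay far apart, and the log2 difference of 4.95 was 3.98 without replicate 1 and 5.92 without replicate 2 of untreated TC plates. For the gels no fold over untreated cells is given, because 1 of the 2 untreated libraries of each was listed at 0.

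Retnlg, the neighbour of Retnla, did not follow it. It was at 0.626 and 0.868 TPM in untreated and at 0.281 and 0.185 TPM in IL-4-treated low-collagen gels. In the other 4 groups it was at 0 in 6 of the 8 libraries, with 0.336 TPM in 1 untreated plate library and 0.291 TPM in 1 high-collagen library with IL-4. The untreated low-collagen libraries were thus the highest, above every other library, and the low-collagen libraries with IL-4 overlapped the rest. When genes of any level were tested, limma called Retnlg lower after IL-4 in low-collagen gels (log2 difference −0.50, adjusted p = 0.0704). It was then also called lower in high- than in low-collagen gels without IL-4 (−0.80, adjusted p = 0.129, limma). At levels under 1 TPM and with unknown depth, both calls are descriptions only. Of its 556 windows of 38 bases, the length of 1 read of a pair, 17 were identical in Retnla. Where Retnla was abundant, the low values of Retnlg are thus uncertain.

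The remaining resistin genes were also low or at 0. Retnlb, the gene of RELM-beta, was at 0 in all 12 libraries. Retn, the gene of resistin itself, reached at most 0.773 TPM, with a mean of 0.307 TPM, and was at 0 in 5 libraries.

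The log2 ratio of Retnla to Retnlg, from log2(TPM + 1), lay between −0.70 and 2.49 in untreated libraries and between 6.79 and 12.9 in libraries with IL-4. It was higher in every library with IL-4. The mean difference over the 3 cultures was 9.47. Because Retnlg never reached 1 TPM, this is nearly the rise of Retnla alone, and no p is given for it.

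Chil3 (ENSMUSG00000040809) and Chil4 (ENSMUSG00000063779, 106201490 to 106219507) lie 33.9 kb apart on the minus strand of chromosome 3, and Chia1, which encodes an active chitinase, lies 15.4 kb from Chil3. Chil1 (ENSMUSG00000064246, 134182176 to 134190181) is on the plus strand of chromosome 1, 30.6 kb from the chitotriosidase gene Chit1. The coding sequences of Chil3 and Chil4 were identical at 1139 of 1194 aligned bases (95.4%), with 55 substitutions and 12 gapped positions, and the longest identical run was 136 bases. Chil3 and Chil1 were identical at 57.8% of aligned bases, with no identical run over 9 bases. How much the pair can be told apart varies along the gene. The stretches of 60 coding bases with the fewest substitutions (0, exon 3, coding bases 111 to 170) and the most (10, exon 6, coding bases 500 to 559) are shown, with substitutions in capitals:
Chil3, chr3:106164177-106164236, minus strand: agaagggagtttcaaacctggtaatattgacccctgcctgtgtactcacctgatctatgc
Chil4, chr3:106214362-106214421, minus strand: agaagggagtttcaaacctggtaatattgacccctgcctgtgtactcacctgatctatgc
Chil3, chr3:106155714-106155773, minus strand: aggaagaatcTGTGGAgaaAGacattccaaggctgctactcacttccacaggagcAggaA
Chil4, chr3:106206041-106206100, minus strand: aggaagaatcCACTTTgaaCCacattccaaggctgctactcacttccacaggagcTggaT
Taken alone, a read from the first stretch would be shared by both genes, and a read from the last would be assigned by its substitutions. Of the 1502 windows of 38 bases in the compared Chil3 transcript, 383 (25.5%) were identical in Chil4. Reads were sequenced in pairs, and the other read of a pair may lie where the genes differ. The windows therefore count single reads and not pairs.

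Words of 31 bases, the unit kallisto compares, were counted over all annotated transcripts. Of the 2786 words of Chil4, 534 (19.2%) occurred in another gene, and 16.9% occurred in Chil3. Of the 1629 words of Chil3, 676 (41.5%) occurred in another gene. The most, 470 (28.9% of its words), occurred in Chil4. The pseudogene Gm6522, which reached at most 0.182 TPM, held 392, and a word can occur in both. Chil1 shared 0 of its 2825 words. So the division of reads between Chil3 and Chil4 is uncertain, and a low value of Chil4 beside a high value of Chil3 is the most exposed to it.

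Chil3 was at 1.15 and 3.50 TPM on TC plates, at 1.78 and 2.66 TPM in high-collagen gels and at 2.51 and 3.03 TPM in low-collagen gels without IL-4. With IL-4 it was at 565 and 631 TPM on TC plates, at 574 and 531 TPM in high-collagen gels and at 1855 and 1817 TPM in low-collagen gels. The untreated groups overlapped. With IL-4, both low-collagen libraries stood above the other 4, and plates and high-collagen gels overlapped. The mean rose with IL-4 662-fold in low-collagen gels, 248-fold in high-collagen gels and 257-fold on TC plates. On plates the log2 difference of 7.59 was 7.05 without replicate 1 and 8.12 without replicate 2 of untreated cells. With IL-4 it was 3.32 times higher in low- than in high-collagen gels and 3.07 times higher than on TC plates. Chil3 ranked 71 and 80 among the genes of the low-collagen libraries with IL-4.

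Chil4 was at 0 in all 6 untreated libraries. With IL-4 it was at 6.13 and 5.76 TPM on TC plates, at 3.87 and 2.58 TPM in high-collagen gels and at 10.3 and 10.2 TPM in low-collagen gels. Low-collagen gels were again the highest, and the 3 cultures with IL-4 did not overlap. Chil4 was higher on TC plates than in high-collagen gels, by a ratio of mean TPM of 1.84, where Chil3 had a ratio of 1.08 and overlapped. It was 3.17 times higher in low- than in high-collagen gels, and 1.72 times higher in low-collagen gels than on TC plates.

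In libraries with IL-4, the level of Chil4 was 1.09% and 0.912% of that of Chil3 on TC plates, 0.673% and 0.487% in high-collagen gels and 0.553% and 0.560% in low-collagen gels. The share was higher on TC plates than in both gels, which overlapped. An error in dividing shared reads that is small beside Chil3 would be as large as Chil4 itself. When the TPM of both genes were summed, the log2 difference between the gels with IL-4, high minus low collagen, was −1.73, the same as for Chil3 alone.

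The log2 ratio of Chil3 to Chil4 lay between 1.11 and 2.17 in untreated libraries and between 6.31 and 7.36 with IL-4. The mean difference over the cultures was 5.20. Since Chil4 was at 0 in every untreated library, this value depends on the pseudocount of 1, and whether the true ratio rose cannot be told. The log2 ratio of Chil3 to Chil1 was higher with IL-4 by 7.94, which is nearly the rise of Chil3 alone, as Chil1 never exceeded 0.304 TPM. No p is given for either.

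Chil1 was at 0 in 7 of the 12 libraries. It was at 0.0974 and 0.304 TPM in untreated low-collagen gels, at 0.222 and 0.292 TPM in IL-4-treated low-collagen gels, and at 0.0959 TPM in 1 high-collagen library with IL-4. All 4 low-collagen libraries were thus above the other 8, at levels far under 1 TPM, and untreated cells and cells with IL-4 overlapped. When genes of any level were tested, limma called Chil1 higher in low-collagen gels than on TC plates, both with IL-4 (log2 difference 0.33, adjusted p = 0.0151) and without it (0.26, adjusted p = 0.0435). Between the gels, high minus low collagen, it was not called with IL-4 (−0.26, adjusted p = 0.282) or without it (−0.26, adjusted p = 0.388). Chil1 was at 0 in every plate library and the reads behind its values are unknown. The calls against plates are therefore descriptions of values near the floor and do not establish a difference between cultures.

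Among the other genes of the glycoside hydrolase 18 family, Chia1, Chil5 and Chil6 were at 0 in all 12 libraries and Chit1, which encodes chitotriosidase, was at 0 in 11. The lysosomal di-N-acetylchitobiase gene Ctbs lay between 13.1 and 25.8 TPM, and Chid1 between 34.3 and 57.9 TPM. Ovgp1, the oviductal glycoprotein gene, lay between 0.255 and 2.78 TPM. In low-collagen gels with IL-4, Chid1 was higher (log2 difference 0.56, adjusted p = 0.00528, limma) and Ctbs lower (−0.44, adjusted p = 0.0514, limma), both small beside Chil3.

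The promoters of Chil3 and Chil4 are shown as those of a pair that rose together with IL-4 at very different levels:
Chil3, chr3:106167565-106167814, minus strand: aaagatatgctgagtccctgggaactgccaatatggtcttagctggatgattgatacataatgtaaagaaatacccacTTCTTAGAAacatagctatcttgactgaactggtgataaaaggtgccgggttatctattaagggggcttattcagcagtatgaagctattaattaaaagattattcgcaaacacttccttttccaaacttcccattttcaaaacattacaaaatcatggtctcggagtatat
Chil4, chr3:106219508-106219729, minus strand: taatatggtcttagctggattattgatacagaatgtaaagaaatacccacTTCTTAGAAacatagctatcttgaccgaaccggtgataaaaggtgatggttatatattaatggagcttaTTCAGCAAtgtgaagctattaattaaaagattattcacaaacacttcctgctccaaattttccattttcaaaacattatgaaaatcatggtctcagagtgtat
They were identical at 201 of 221 aligned bases (91.0%). Capitals mark the word TTCNNNGAA in both and the word TTGCNNAA, on the other strand, in Chil4. The word TTCNNNNGAA had no match in either, and the Chil1 promoter held none of the 3 words, which says only that these letters are not in these windows.

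The groups were compared by limma on log2(TPM + 1), over all genes with a mean of at least 1 TPM, and called means an adjusted p under 0.2. For comparisons among gels the fit held the 8 gel libraries and 11852 genes, and for comparisons with TC plates all 12 libraries and 11865 genes. A permutation test of 2 libraries against 2 cannot give a p under 0.33, so these calls rest on the spread that limma shares over genes. The p-values measure only the spread between these libraries. With IL-4, 3 of the 5 genes were called higher in each culture. In the same comparisons 13.2% of all genes tested were called higher in low-collagen gels, 11.5% in high-collagen gels and 14.7% on TC plates. Since Chil4, and within the gels Retnla, reached the minimum only through the IL-4 libraries, this count is a description only.

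In low-collagen gels the log2 difference between IL-4 and untreated cells was 12.83 for Retnla (adjusted p = 2.62e-08, limma), 8.93 for Chil3 (adjusted p = 2.52e-08) and 3.49 for Chil4 (adjusted p = 3.18e-05). In high-collagen gels it was 10.11 for Retnla (adjusted p = 1.31e-07, limma), 7.44 for Chil3 (adjusted p = 1.03e-07) and 2.06 for Chil4 (adjusted p = 0.00078). On TC plates Chil3 had the largest difference, 7.59 (adjusted p = 8.27e-08, limma), ahead of Retnla at 4.95 (adjusted p = 5.46e-05) and Chil4 at 2.80 (adjusted p = 7.12e-06). For Retnla in gels and for Chil4 everywhere, the size depends on the pseudocount, because untreated libraries were at 0. These values were also tested only because libraries with IL-4 lifted the mean over the minimum. The filter thus favoured a rise, and the p-values of Retnla in gels and of Chil4 are descriptions only.

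**Figure D2:**
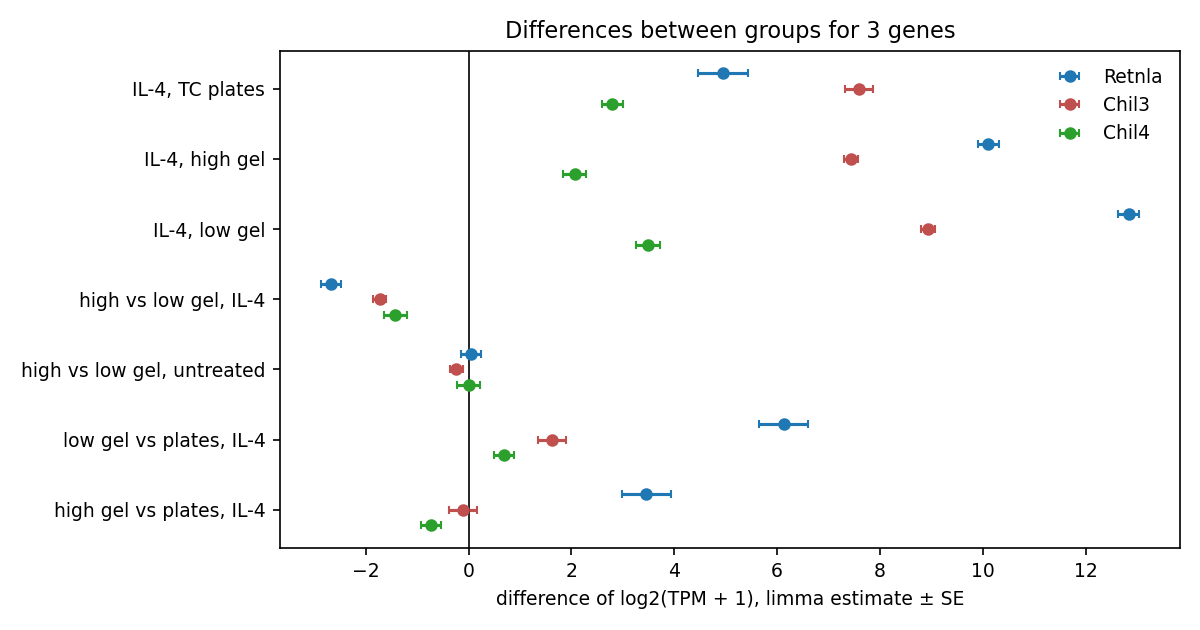
Differences of log2(TPM + 1) between groups for Retnla, Chil3 and Chil4 on the horizontal axis, as the estimate from limma with its SE, for 7 comparisons. Points right of 0 are higher in the group named first or with IL-4. The 3 genes are right of 0 for IL-4 in all 3 cultures and left of 0 for high against low collagen with IL-4, while Chil3 is near 0 between high-collagen gels and plates.

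With IL-4, 3 of the 5 genes were called lower in high- than in low-collagen gels, where 6.99% of all genes were. Only these 3 were tested, and within the gels Retnla and Chil4 reached the minimum only through the IL-4 libraries. The paper had already named Retnla and Chil3 from these data as higher in low-collagen gels, so this count is a description only. The log2 difference was largest for Retnla, and Chil4 (−1.43, adjusted p = 0.0209, limma) was close to Chil3 (−1.73, adjusted p = 0.00332). Without IL-4, limma called 0 of the 5 genes between the gels, with 0.05 for Retnla (adjusted p = 0.932), −0.24 for Chil3 (adjusted p = 0.443) and 0 for Chil4, which was at 0 in all 4 libraries. At an unadjusted p under 0.05 the count was also 0 of these genes, against 1862 genes in all, and 8.02% of all genes were called in either direction. This number of genes, 951, fell to between 138 and 721 when 1 library was left out. With Retnla and Retnlg summed, the difference without IL-4 was −0.67 and was called (adjusted p = 0.177 by limma, the lowest of alternatives that reached 1). In low-collagen gels that sum is mostly Retnlg. The direction of Retnla itself reversed without replicate 1 of untreated high-collagen gels (−0.19) and without replicate 1 of untreated low-collagen gels (−0.14), and was not called there.

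An interaction test subtracts the IL-4 effect of low-collagen gels from that of high-collagen gels. It called 2 of the 5 genes lower, where 0.169% of all genes were. These were Retnla and Chil3, and Chil4 was not called (−1.43, adjusted p = 0.295, limma). Untreated gels had Retnla near 0 and Chil4 at 0, so their values nearly repeat the difference between the gels with IL-4. That difference was −2.67 for Retnla and −1.43 for Chil4, beside −2.72 and −1.43 in the interaction. The count is therefore a description only. The calls of Retnla and Chil3 were sensitive. A pseudocount of 0.1 left Retnla uncalled (adjusted p = 0.491, limma, range 0.0185 to 0.491 over the alternatives), and with all 12 libraries in the fit neither Retnla (adjusted p = 0.223) nor Chil3 (adjusted p = 0.228, range 0.0424 to 0.315) was, while Chil4 was (−1.43, adjusted p = 0.152, range 0.0584 to 0.629). Chil4 was also called with no trend (adjusted p = 0.174, limma). The lowest adjusted p in its range belongs to its sum with Chil3, which is nearly all Chil3. Chil3 was also not called without replicate 2 of high-collagen gels with IL-4 (adjusted p = 0.315, limma), without replicate 1 (adjusted p = 0.246) or without replicate 2 of low-collagen gels with IL-4 (adjusted p = 0.238).

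Against TC plates with IL-4, low-collagen gels had 3 of the 5 genes called higher, where 22.8% of all genes were. These were 2708 genes, and 4325 after median-ratio rescaling. Before rescaling the log2 difference was 6.13 for Retnla (adjusted p = 4.23e-06, limma), 1.62 for Chil3 (adjusted p = 0.000571) and 0.69 for Chil4 (adjusted p = 0.0128). High-collagen gels had 2 of the 5 genes called against plates with IL-4, in opposite directions, where 74.6% of all genes were called in either direction. Retnla was higher (3.46, adjusted p = 0.000156, limma) and Chil4 lower (−0.73, adjusted p = 0.00949), and Chil3 was not called (−0.11, adjusted p = 0.741). The value of Chil3 turned to 0.13 after median-ratio rescaling of the libraries and was not called there either. A pseudocount of 0.1 left Chil4 uncalled between low-collagen gels and plates (adjusted p = 0.210, limma, range 0.000585 to 0.210 over the alternatives). The sum of Chil4 and Chil3, which is nearly all Chil3, was not called between high-collagen gels and plates (−0.12, adjusted p = 0.727, limma, range 0.00116 to 0.727).

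Without IL-4 the order of plates and gels was the opposite for Retnla. It was lower in low-collagen gels than on TC plates (−1.76, adjusted p = 0.00987, limma) and lower in high-collagen gels (−1.71, adjusted p = 0.0112). This was 1 of the 5 genes called lower in each comparison, where 44.3% and 45.5% of all genes were. The size rested on the pseudocount and on the plate libraries, at 0.969 and 6.52 TPM. With a pseudocount of 0.1 it was −3.74 in low- and −3.59 in high-collagen gels, and the sum of Retnla and Retnlg gave −1.07 in low-collagen gels. All of these were called. Without replicate 1 on TC plates it was −2.72 in low- and −2.67 in high-collagen gels, and without replicate 2 it was −0.79 and −0.74. Chil3 was not called in either comparison (0.27, adjusted p = 0.417, and 0.04, adjusted p = 0.920, limma), and its direction also rested on the plate libraries. Without replicate 1 its difference was −0.26 in low- and −0.50 in high-collagen gels, the last one called (adjusted p = 0.0276, limma), and without replicate 2 it was 0.81 (adjusted p = 0.00286) and 0.57 (adjusted p = 0.0156), both called. Without replicate 2 of untreated high-collagen gels the difference for these gels was −0.16 and uncalled. The adjusted p of Chil3 ranged over all alternatives from 0.00286 to 0.705 and from 0.0156 to 1. These comparisons with plates share the plate libraries.

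Subtracting the IL-4 effect on TC plates from that of low-collagen gels called 3 of the 5 genes higher, where 9.3% of all genes were. The value was 7.89 for Retnla (adjusted p = 0.000179, limma), 1.34 for Chil3 (adjusted p = 0.0564) and 0.69 for Chil4 (adjusted p = 0.156). For high-collagen gels minus TC plates 2 of the 5 genes were called, where 17.3% of all genes were called in either direction. Retnla was higher (5.16, adjusted p = 0.00217, limma), Chil4 lower (−0.73, adjusted p = 0.177), and Chil3 was not called (−0.15, adjusted p = 0.872). The value of Chil3 against low-collagen gels was 1.88 without replicate 1 of untreated TC plates and 0.81 without replicate 2, and a pseudocount of 0.1 left it uncalled (adjusted p = 0.202, limma, range 0.00167 to 0.202 over the alternatives). Against high-collagen gels it was 0.38 without replicate 1 of untreated TC plates, −0.68 and called without replicate 2 (adjusted p = 0.122, limma, range 0.122 to 0.979) and 0.05 without replicate 2 of untreated high-collagen gels. For Chil4 a pseudocount of 0.1 ended both calls (adjusted p = 0.538, range 0.0502 to 0.538, and 0.556, range 0.0561 to 0.865, limma). Its call for high-collagen gels was also lost with rescaling (−0.53, adjusted p = 0.334), a replicate block (adjusted p = 0.210) and a fit restricted to the 8 libraries compared (adjusted p = 0.265), and the sum with Chil3, nearly all Chil3, was not called either (−0.16, adjusted p = 0.865). The calls of Chil4 were lost without any 1 of 7 libraries for low-collagen gels, with adjusted p from 0.228 to 0.293 by limma, and of 9 libraries for high-collagen gels, with adjusted p from 0.235 to 0.383. The 7 were the 4 plate libraries, both low-collagen libraries with IL-4 and replicate 2 of untreated low-collagen gels. The 9 were the 4 plate libraries, both untreated high-collagen libraries, replicate 2 of high-collagen gels with IL-4 and both low-collagen libraries with IL-4, which enter through the shared spread.

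Retnla and Chil3, the abundant members of each family, did not keep a fixed ratio across cultures with IL-4. The log2 ratio of Retnla to Chil3 was −2.15 and −2.51 on TC plates, 1.36 and 1.12 in high-collagen gels and 2.04 and 2.32 in low-collagen gels. Chil3 was thus the more abundant on plates and Retnla in both gels, and the 3 cultures did not overlap. The mean ratio was higher by 4.51 in low-collagen gels than on plates, by 3.57 in high-collagen gels than on plates and by 0.94 in low- than in high-collagen gels, against a pooled SD between replicates of 0.212. These gaps were not tested.

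**Figure D3:**
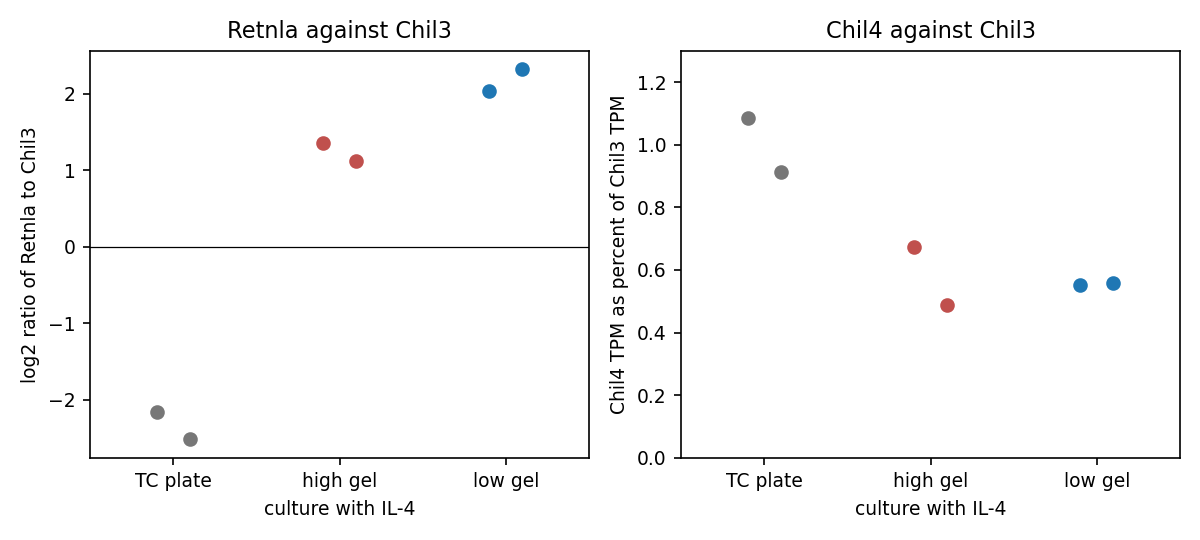
Ratios between genes in the 6 libraries with IL-4, 1 point for each library, by culture on the horizontal axis. On the left, the log2 ratio of Retnla to Chil3 is under 0 on TC plates and above 0 in both gels, and on the right, Chil4 as a percent of the TPM of Chil3 is highest on TC plates, at 0.912 and 1.09.

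The genes whose pattern was most like that of each tested member were taken by Pearson correlation of log2(TPM + 1) over the 12 libraries, among 9670 genes. Because libraries with and without IL-4 form separate clusters, r mostly records a shared rise and is a description only. For Retnla they were Gm8113 (r = 0.990), the chemokine gene Ccl8 (0.983), Pdlim1 (0.980), the eosinophil-type ribonuclease gene Rnase2a (0.980) and the protease gene Furin (0.979). For Chil3 they were Atp6v1b2, a subunit of the vacuolar proton pump (r = 0.996), Ang2 (0.995), Tarm1 (0.993), Flt1, a VEGF receptor gene (0.993), and Mcf2l (0.993). For Chil4 they were the sterol transporter gene Abcg1 (r = 0.996), the retinol carrier gene Rbp4 (0.993), Ang2 (0.993), Atp6v1b2 (0.982) and Chil3 itself (0.981). Like Retnla, Ccl8 had means of 13.6 TPM on TC plates, 35.5 TPM in high-collagen gels and 50.6 TPM in low-collagen gels with IL-4. Like Chil4, Rbp4 was at 8.56, 6.87 and 23.3 TPM in these cultures and at 0 in every untreated group.

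Apart from Chil3 and Chil4 themselves, 7 genes within 250 kb of Retnla or Chil3 were tested. After IL-4 in low-collagen gels 0 of them were called higher and 4 lower, where 1567 and 4784 of 11852 genes were. With so few genes this is near the share over all genes. Every tested gene within 250 kb of Chil1 was called lower, so these counts are a description only. Within 250 kb of Retnla, Dzip3 (4.34 to 10.2 TPM) and Cip2a (9.65 to 42.6 TPM) were expressed, with log2 differences with IL-4 in low-collagen gels of −0.52 (adjusted p = 0.0942, limma, called lower) and −0.26 (adjusted p = 0.278, not called). Within 250 kb of Chil3, the ATP synthase subunit gene Atp5f1 lay between 175 and 268 TPM, with a difference of 0.08 (adjusted p = 0.302, limma). Adora3 (−0.71, adjusted p = 0.108, limma), I830077J02Rik (−0.34, adjusted p = 0.158) and Wdr77 (−0.27, adjusted p = 0.168) were also called lower, and Ovgp1 (−0.30, adjusted p = 0.435) was not called. Within 250 kb of Chil1, the genes called lower were Btg2 (−1.45, adjusted p = 0.000962, limma), Cyb5r1 (−1.01, adjusted p = 0.000248) and Adipor1 (−0.74, adjusted p = 0.00011). Tmem183a (−0.37, adjusted p = 0.127, limma) and Ppfia4 (−0.33, adjusted p = 0.17) were called lower there too.

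The other genes of the IL-4 response were taken from lists. Of the 18 genes of the IL-4 receptor, its signalling and the transcription factors tied to it, limma called 8 higher and 9 lower after IL-4 in low-collagen gels, and 1 was not called. Of all 11852 genes, 1567 were called higher and 4784 lower there. The median log2 difference of the 18 was −0.13, beside −0.192 for all genes. The largest were the feedback inhibitor genes Socs1 (6.62, adjusted p = 1.43e-07, limma) and Cish (4.42, adjusted p = 9.92e-07) and the transcription factor gene Egr2 (3.95, adjusted p = 3.6e-06). Il4ra, which encodes the IL-4 receptor alpha chain, was at −0.21 (adjusted p = 0.0906, limma), Stat6, the transcription factor the receptor activates, at −0.25 (adjusted p = 0.0278), and Cebpb at −0.56 (adjusted p = 0.0191). The calls of Il4ra and Stat6 depended on the scaling, as median-ratio rescaling gave 0.00 (adjusted p = 0.997, limma) and −0.04 (adjusted p = 0.685). It moved the median of all genes by 0.188, from −0.192 to −0.00414, and the share of called genes that were higher from 24.7% to 52.8%, and the 18 genes became 9 higher and 5 lower.

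Comparing the gels with IL-4, 2 of these 18 genes were called higher in high-collagen gels, 3 lower and 13 not, with a median of −0.04 beside 0.0643 for all genes, of which 1672 were called higher and 828 lower. Called were Egr2 (−1.15, adjusted p = 0.0162, limma), Il13ra1 (0.77, adjusted p = 0.0372), a chain of the IL-4 and IL-13 receptor, and Irf4 (−0.76, adjusted p = 0.034), as were Socs1 and Il2rg. Stat6 (−0.11, adjusted p = 0.352, limma), Cebpb (0.05, adjusted p = 0.869) and Il4ra (−0.03, adjusted p = 0.882) were not. After rescaling, which moved the median of all genes by −0.0691 and the share of calls that were higher from 66.9% to 47.4%, 2 were higher and 6 lower, Stat6 among them (−0.19, adjusted p = 0.122, limma).

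Of 15 other classical IL-4-induced genes, 13 were tested. After IL-4 in low-collagen gels 1567 of all 11852 genes were called higher and 4784 lower. Of the 13, 12 were higher there and 0 lower, with a median of 2.67. Examples are the lectin gene Mgl2 (8.37, adjusted p = 1.43e-06, limma) and the integrin gene Itgax (4.83, adjusted p = 9.92e-07). Between the gels with IL-4, 828 of all 11852 genes were called lower in high-collagen gels and 1672 higher. Of the 13, 5 were lower there, 1 higher and 7 not called, with a median of −0.39. The largest called falls were of the chemokine gene Ccl24 (−3.77, adjusted p = 0.00766, limma), Itgax (−0.84, adjusted p = 0.0293) and Flt1 (−0.60, adjusted p = 0.0939). After rescaling these counts were 6, 0 and 7.

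Of 7 genes for receptors and partners of these proteins, 5 were tested, and Il13ra2, a receptor of the Chil1 protein, and Ptgdr2 were at 0 in all 12 libraries. In low-collagen gels 3 were higher and 2 lower after IL-4, with a median of 0.50, where 1567 of 11852 genes were higher and 4784 lower. After rescaling 3 were higher, 1 lower and 1 not called, as Tmem219 went from −0.26 (adjusted p = 0.0468, limma) to −0.05 (adjusted p = 0.732). Higher were the galectin gene Lgals3 (1.37, adjusted p = 7.11e-06, limma), the hyaluronan receptor gene Cd44 (0.91, adjusted p = 6.28e-05) and Tlr4 (0.50, adjusted p = 0.0127). Between the gels with IL-4, Lgals3 (−0.40, adjusted p = 0.0235, limma) and Cd44 (−0.19, adjusted p = 0.151) were lower in high-collagen gels, Cap1, which encodes a resistin receptor, was higher (0.26, adjusted p = 0.0718), and 2 were not called. The median was −0.14, where 1672 of all 11852 genes were called higher and 828 lower.

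Neutrophils make Retnlg, Chil1 and Chil3 as well, so the levels of their markers are given beside them. Of 12 neutrophil markers, 6 had a mean of at least 1 TPM. The summed level of all 12 was 30.5 and 25.2 TPM on untreated and 42.5 and 46.5 TPM on IL-4-treated TC plates. It was 111 and 105 TPM in untreated and 179.8 and 179.6 TPM in IL-4-treated high-collagen gels, and 119.95 and 142.7 TPM in untreated and 198.9 and 177 TPM in IL-4-treated low-collagen gels. The sum was higher in gels than on plates and overlapped between the gels with IL-4. The most abundant was Csf3r, the G-CSF receptor gene, which macrophages can express too. The defining marker Ly6g was at 0 in all 12 libraries, Mpo reached at most 0.079 TPM and Elane at most 0.353 TPM. With IL-4 in low-collagen gels 1 of the 6 was higher, Csf3r (0.91, adjusted p = 0.000151, limma), 3 were lower, among them Mmp8 (−0.95, adjusted p = 0.00475) and S100a8 (−0.69, adjusted p = 0.0587), and 2 were not called, with a median of −0.58. After rescaling 1 was higher, 2 were lower and 3 not called, and 4784 of 11852 genes were lower before it. Between the gels with IL-4, Prtn3 was higher in high-collagen gels (1.18, adjusted p = 0.0425, limma), S100a8 lower (−0.79, adjusted p = 0.101) and 4 not called, with a median of 0.03. Of all 11852 genes, 1672 were higher there and 828 lower. Without IL-4, 1 of the 6 was called higher in high-collagen gels, 2 lower and 3 not, with a median of −0.46. There 383 of all genes were higher and 568 lower. S100a8 was at 11.8 and 12.5 TPM in untreated low- and at 7.73 and 5.15 TPM in untreated high-collagen gels. Prtn3 was at 2.77 and 2.86 TPM and at 7.90 and 9.49 TPM in these groups. The part of other cells in the low levels of Retnlg and Chil1 was not tested.

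Of 10 macrophage markers, 3 were higher and 6 lower with IL-4 in low-collagen gels, where 4784 of 11852 genes were lower, with a median of −0.58. Cd14, a coreceptor for lipopolysaccharide (−1.81, adjusted p = 6.17e-06, limma), Fcgr1 (−1.67, adjusted p = 0.000697) and Mertk (−0.82, adjusted p = 0.00186) had the largest falls. Between the gels with IL-4, 5 were higher in high-collagen gels and 1 lower, with Cd14 (0.67, adjusted p = 0.0121, limma), Itgam (0.50, adjusted p = 0.023) and Csf1r (0.32, adjusted p = 0.0341) as the largest, and a median of 0.12. Of all 11852 genes, 1672 were called higher there and 828 lower. After rescaling 3 of the 10 markers were higher and 2 lower, and of all genes 1217 were higher and 1351 lower. Of the monocyte markers, Ccr2 was lower with IL-4 in low-collagen gels (−1.54, adjusted p = 3.04e-05, limma) and Ly6c2 was not called, and Ccr2 was higher in high- than in low-collagen gels with IL-4 (0.56, adjusted p = 0.0271). The summed level of the 6 eosinophil markers was between 2.25 and 5.06 TPM, with Epx at 0 in all 12 libraries. The tested one, Cebpe, was not called for IL-4 in low-collagen gels or between the gels with IL-4. Without IL-4 it was called lower in high-collagen gels than on TC plates (log2 difference −0.59, limma). The 4 dendritic cell markers together reached at most 1.52 TPM. Of 4 epithelial markers, 1 was tested, Cdh1, which is also on the list of IL-4-induced genes and rose with IL-4 in low-collagen gels (2.45, adjusted p = 0.000309, limma). The part of these cell types in the levels of Retnla, Chil3 and Chil4 was not tested.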

How the data were processed

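The authors sequenced paired ends of stranded mRNA libraries, estimated transcript abundance with kallisto 0.46.1 on GRCm38 and deposited TPM for each gene and library. The table held 34456 lines, of which 129 repeated others and were collapsed, and 0 columns were left unmapped. Where a symbol had several identifiers (31 symbols), the one with the highest mean TPM was used. Depth is unknown, so tests on counts were not possible.

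The 12 libraries were grouped by their labels. limma 3.58.1 in R 4.3.3 was fitted to log2(TPM + 1) across all genes with mean TPM at or above 1. It used 1 mean per group, a trend of variance with level, and p-values adjusted by Benjamini-Hochberg, with calls under 0.2. The fit was tested on simulated data. Ratios between relatives were compared with exact permutation tests within culture, whose p-values are not given because 1 gene of each pair was near 0. Shared words of 31 bases, windows of 38 bases and alignments were computed from the GENCODE annotation of GRCm38 with biopython 1.88, and promoters came from RefSeq, where all 5 symbols matched. Other versions were pandas 2.3.3, python 3.11.15, matplotlib 3.10.9 and numpy 2.4.6.

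Genes were named by a rule: the 5 members in every comparison, all measured genes of both families, and, from each list, counts, where given, and up to 3 called genes with the largest log2 difference for IL-4 in low-collagen gels and for high against low collagen with IL-4, plus Stat6, Cebpb and Il4ra. For each tested member, the rule took the 5 genes with the highest correlation among those with a mean TPM of at least 5. Neighbouring genes, Socs1, Il2rg, Tmem219 and the other markers named by level were chosen after their values were seen. The lists covered both families, IL-4 signalling, other IL-4-induced genes, receptors and partners, and markers of macrophages, neutrophils, eosinophils, monocytes, dendritic cells, lymphocytes, fibroblasts and epithelia. The members and lists were chosen with earlier results of these data known, so counts of members called are descriptions only.

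Settings tried in turn were no filter, a filter at mean TPM 5, a pseudocount of 0.1, no trend, median-ratio rescaling, a replicate block, an adjusted p under 0.05, only the compared or all 12 libraries in the fit, relatives summed, and 1 library left out at a time. A crossed replicate block was added after seeing the data.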

Additional observations from a re-analysis of the deposited data

Results flagged for a closer look

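Differences between cultures in the response to IL-4 were picked out by an interaction test in limma, the IL-4 effect in one culture minus that in another, on log2(TPM + 1). Between high- and low-collagen gels it was −2.72 for Retnla (adjusted p = 0.0319) and −1.49 for Chil3 (adjusted p = 0.0632), so the rise was smaller in high-collagen gels. Between low-collagen gels and TC plates it was 7.89 for Retnla, 1.34 for Chil3 and 0.69 for Chil4, so the rise was larger in the gels. Between high-collagen gels and TC plates it was 5.16 for Retnla and −0.73 for Chil4. The call of Chil4 was lost in 15 of 20 alternatives here and in 9 of 20 for low-collagen gels and plates. As Chil4 was at 0 without IL-4, both of its values are the difference between the cultures with IL-4 and not a separate measure. Retnla was near 0 in untreated gels, so its value between the gels is nearly the difference between the gels with IL-4. Between the gels, the call of Retnla was lost in 2 and that of Chil3 in 5 of 17 alternatives. For Retnla, untreated libraries of both gels held values of 0, and for Chil4 all untreated libraries did, so the sizes depend on the pseudocount.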

How the results depend on the processing

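Depth is unknown, 2 libraries a group limit every test, and where a cause is not named the cause was not tested. Of 698 values of single members under the alternatives, 648 kept their direction and their side of the threshold, 35 were no longer called, 6 became called and 9 reversed. The number of members called fell to 1 for all 3 interactions with a pseudocount of 0.1 and at an adjusted p under 0.05, for the collagen interaction with all 12 libraries in the fit, and for the interaction of high-collagen gels and TC plates with a mean TPM of at least 5 (Chil4 untested), rescaling, the replicate block or only the compared libraries. With IL-4, high-collagen gels against TC plates had 1 at a mean TPM of at least 5. With no filter, the gels without IL-4 had 1 (Retnlg) and low-collagen gels against TC plates without IL-4 had 3 (Retnla, Retnlg and Chil1). Retnlg and Chil1 were under 1 TPM in every library, so their calls are descriptions only. Rescaling turned Chil3 between high-collagen gels and TC plates with IL-4 to 0.13, and summing Retnlg turned Retnla between untreated gels to −0.67. With each library left out in turn, the lone library being assumed to vary like the other groups, 1 to 2 members were called for the collagen interaction, for the interaction of high-collagen gels and TC plates, and for each gel against TC plates without IL-4. The log2 difference ranged from −0.19 to 0.29 for Retnla between untreated gels, and for Chil3 from −0.26 to 0.81 and from −0.50 to 0.57 for low- and high-collagen gels against TC plates without IL-4, and from −0.68 to 0.38 for the interaction of high-collagen gels and TC plates. Of 226 counts of all genes called, 33 moved by over 1.5 times, as between gels with IL-4 from 2500 to 715 and 721 without replicate 2 of high- or of low-collagen gels with IL-4, and for the collagen interaction from 43 to 10 without replicate 2 of high-collagen gels with IL-4. With the replicate block Chil4 was not called for the interaction of high-collagen gels and TC plates (adjusted p = 0.210, limma, range 0.0561 to 0.865 over the alternatives). Deviations of libraries with the same number correlated between −0.123 and 0.109 over 15 pairs of groups, so such libraries share only a number, and a crossed pairing, chosen after seeing the data, left 3 members called for IL-4 on TC plates and 3 in low-collagen gels. Only the compared libraries in the fit gave no other fit for the collagen interaction, which uses all 8.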
